A study of Mus musculus with 4 samples.

Results

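Rab GTPases are the largest branch of the Ras superfamily of small GTPases. Loaded with GTP, each Rab sits on a particular membrane and recruits effectors that move, tether or fuse vesicles there. Exchange factors load the GTP, GTPase-activating proteins end the signal, and a prenyl tail anchors the protein to the membrane. In neutrophils and their precursors, Rabs are known for sorting enzymes into granules, for phagosome maturation and for granule release, in which Rab27a takes part.

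The members were selected by gene name alone, as array probes for genes called Rab followed by a number and an optional letter. This gave 56 Rab genes with 111 probes, of 27630 genes and 41174 probes on the array. The family was singled out with the genotype comparison of these same arrays already known, so its differences between genotypes are given as a description and support nothing beyond it. Regulators and partners such as Rabgap1 or Rabep1 are not members. 3 genes that are Rabs only by their current symbol (Rab29, listed in the files as Rab7l1, and the entries 5430435G22Rik and Rab42-ps) were also outside the rule. Rab1 and Rab6, as the files name them, are now Rab1a and Rab6a.

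The arrays hold RNA of immature granulocytes, which give rise to neutrophils, sorted from marrow. All samples came from C57BL/6 males, with 2 arrays of wild type (WT) and 2 of miR-223 KO. The microRNA miR-223 is abundant in myeloid cells and lowers transcripts that pair with its seed, and the comparison asks what differs in its absence. The labels give no age, no sorting markers, no description of the allele and no sign that replicates were separate animals, so the spread behind each p-value may be only technical. The array has no probe named for Mir223, so the deletion itself was not checked. In bulk RNA, fewer cells of a type and less RNA per cell cannot be told apart.

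The probe sequences were searched for letters complementary to the microRNA. A 60-base probe covers only its own stretch of a transcript, and the rest of each Rab transcript was not searched. The letters sought in every Rab probe were the complement of seed bases 2 to 7 of miR-223-3p. Of the 111 Rab probes 2 held one, which is 1.80% against 1.41% of all probes. The first line is the mature miRNA (RefSeq) with its seed, bases 2 to 8, in capitals. The others are 30 bases of the Rab10 and Rab3d probes in transcript sense, with the complementary letters in capitals. In the Rab10 probe these are followed by the A that makes a 7mer-A1 match, and in the Rab3d probe the match is a 6mer.
miR-223-3p: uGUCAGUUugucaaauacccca
Rab10: gACTGACAgttttgttgtttgcataattat
Rab3d: ctattcACTGACcagactcccctaaacact
The files place the Rab10 probe at chr12:3247758-3247817 and the Rab3d probe at chr9:21713734-21713793, both on the minus strand of mm9. Whether these stretches lie in an untranslated region was not analysed here, and a match of letters is not a measured site. Both probes gave higher signal in miR-223 KO, with values given below. Of all 25749 probes kept, the 379 with a match had a median log2 difference of 0.05, against -0.04 without one. Of these 379 probes 215 were higher in KO, and the probes without a match were not counted in this way. Whether the letters bear on the signal of either Rab probe was not tested.

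All 4 arrays lay on the same slide. Between 59.6% and 62.9% of the spots of an array were well above background, and correlations over probes were 0.994 within each genotype and 0.988 to 0.990 between genotypes. Levels below are log2 processed signals relative to the 75th percentile of the array, and a difference is miR-223 KO minus WT, with its standard error (SE) from limma and n = 2 arrays per genotype. Granulocyte markers were abundant: 10 of 12 listed markers were measured, Ly6g and Cebpe were not found under those names, and their linear signals summed to 5833 and 6385 times the 75th percentile on the WT arrays and to 6157 and 5443 times on the KO arrays. Other lists summed to less, and some moved with genotype. The 10 monocyte and macrophage markers had a median difference of 0.65, 9 of them being higher in KO, although they summed to 594 and 591 on the WT arrays and 675 and 601 on the KO arrays. The 7 measured of 8 eosinophil and basophil markers summed to 13.5 and 11.8 in WT and 19.9 and 18.5 in KO. Of these markers 4 were higher on the KO arrays and 3 went the other way. The latter were Ccr3 (-0.62), Fcer1a (-0.63) and Mcpt8 (-0.15), the last with overlapping arrays. The 4 measured erythroid markers were all lower in KO, with sums of 47.5 and 45.8 in WT and 35.1 and 27.2 in KO. T and NK cell markers summed to 1.14 and 1.08 in WT and 0.640 and 0.485 in KO, so this sum was lower on both KO arrays. Of the 7 measured, only Cd3d separated the genotypes, with a difference of -1.43, and the others overlapped. Megakaryocyte markers summed to at most 2.22 on any array, B cell markers to at most 9.20 and stem and progenitor markers to at most 13.9, and each of these sums was higher on both KO arrays than on either WT array. The part of these cells in the Rab values was not tested.

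Most of the family was readily detected in immature granulocytes. Of the 56 Rab genes 49 were measured, meaning that a probe was well above background on at least 2 arrays, and the probe used for each of the 49 was well above background on all 4. The 7 others were Rab3c and Rab27b (secretory vesicles), Rab9b and Rab36 (late endosome), Rab39b (Golgi), Rab40b and Rab30 (Golgi). All probes of 6 of them were below that limit on every array, and the single Rab30 probe passed on 1 array only, WT replicate 2. Rab27b, the paralog of Rab27a, has 3 probes, of which 0 passed. The absence of signal in these probes is a limit of detection and not a measured absence of transcript.

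As a family the Rab genes differed little between the genotypes. Of the 49 measured genes 25 were higher and 24 lower in miR-223 KO, the median difference was 0.00, and the median size of a difference was 0.16 against 0.20 over all 16978 measured genes. With limma over all genes, 0 Rab genes passed an adjusted p of 0.05, where 0% of all genes passed. The smallest adjusted p among the Rab genes was 0.0838. At an unadjusted p under 0.05 there were 9 Rab genes (18.4%), 6 higher and 3 lower, beside 23.8% of all genes. In 26 Rab genes (53.1%) both KO arrays lay on one side of both WT arrays, 14 higher and 12 lower, beside 58.6% of all genes. A difference of at least 2-fold was seen in 2 Rab genes (4.08%), Rab15 and Rab2b, beside 2.5% of all genes. When the variance prior was allowed to follow signal intensity, 5 Rab genes passed, beside 9.58% of all genes: Rab15, Rab2b and Rab10 were higher, with adjusted p of 0.00356, 0.00626 and 0.00867, and Rab13 and Rab8a lower, with 0.0413 and 0.0430. Over all settings tried, the adjusted p ran from 0.00153 to 0.487 for Rab15, from 0.00370 to 0.515 for Rab2b, from 0.00667 to 0.786 for Rab10, from 0.0219 to 0.487 for Rab13 and from 0.0430 to 0.946 for Rab8a. The shares of the family were close to or below those of all genes by each of these counts but the 2-fold one, which rests on 2 genes. The balance of signs depends on the processing. With arrays scaled to their median, or on the authors' deposited values, 35 of 49 Rab genes were higher, while the share of all genes that were higher went from 47.6% to 58.8% and 59.1%. With normexp background correction 32 of 49 Rab genes were higher, 23 had changed sign and their median was 0.23, while the median over all genes was -0.15 and 43.6% of them were higher. Normexp fitted without control spots moved the family less, with 28 of 49 higher, 9 changed in sign and a median of 0.02. Over all genes that version gave a median of -0.08, with 37.7% higher.

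**Figure D1:**
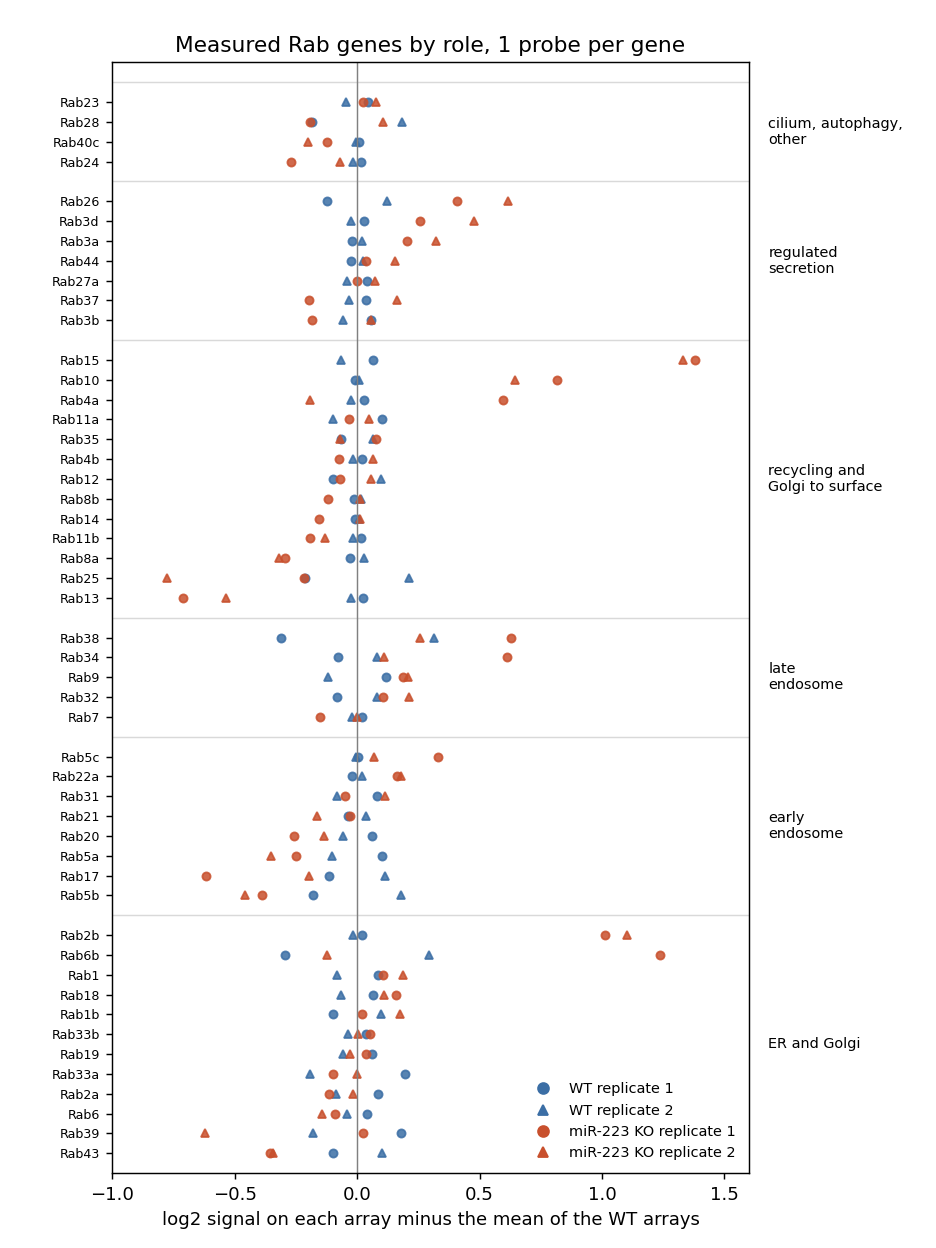
Each of the 49 measured Rab genes is plotted by role, with the x axis giving the log2 signal of each of the 4 arrays minus the mean of the WT arrays, in blue for WT and orange for miR-223 KO. In 26 genes both KO points lie on the same side of both WT points, mostly by small margins. The mean of the KO points stands farthest above WT in Rab15 and Rab2b (1.36 and 1.06), followed by Rab10 (0.73), and farthest below in Rab13 (-0.62).

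Recycling endosomes and the route from the Golgi to the plasma membrane held the largest differences in both directions. All 13 listed Rabs of this group were measured, 5 higher and 8 lower, with a median difference of -0.01. An unadjusted p under 0.05 was found in 4 of them (30.8%), beside 23.8% of all genes. Rab15, an endosomal Rab described mainly in neurons, had levels of -0.76 and -0.89 on the WT arrays and 0.56 and 0.51 on the KO arrays. The KO arrays lay well apart from the WT arrays and close to each other. The difference was 1.36 ± 0.09 (SE), a 2.56-fold higher signal (limma, adjusted p = 0.0838). Rab15 has 1 probe, at chr12:77898991-77899050 (mm9, minus strand), so no other stretch of its transcript was measured.

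Rab10, which carries cargo such as GLUT4 and TLR4 to the surface, had levels of 2.22 and 2.24 in WT and 3.05 and 2.88 on the KO arrays. The genotypes did not overlap, and the difference was 0.73 ± 0.10 (SE; limma, adjusted p = 0.0896). This is the probe printed above with the 7mer-A1 letters, and it is the most downstream of the 4 Rab10 probes. The other probes did not show this difference. Upstream of it, the probe at chr12:3249867-3252667, whose 60 bases are split over a longer genomic stretch, differed by -0.01, and the probe at chr12:3252628-3252687 by 0.02. The most upstream probe, at chr12:3307092-3307151, is annotated to a cDNA clone in place of the RefSeq mRNA, and had levels of -0.99 and -0.94 in WT and -1.62 and -1.44 in KO. Its KO arrays lay below both WT arrays, a difference of -0.57. The 4 probes of this gene thus gave a higher, a lower and 2 near-zero differences, and the mean over them was 0.04.

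**Figure D2:**
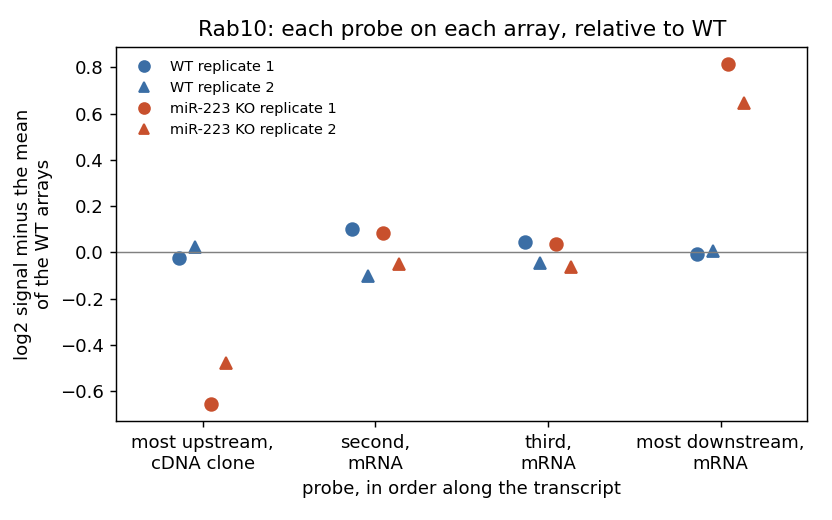
The 4 Rab10 probes are placed on the x axis in their order along the transcript, and the y axis gives the log2 signal of each array minus the WT mean of that probe. The KO points stand about 0.73 above the WT points in the most downstream probe, overlap them in the 2 middle probes and lie 0.57 below them in the most upstream probe.

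Rab13, known from tight junctions and cell spreading, had levels of -1.69 and -1.73 in WT and -2.42 and -2.24 in KO. Both KO arrays were lower, by -0.62 ± 0.10 (SE; limma, adjusted p = 0.0968), which is 1.54-fold. Rab8a, which serves surface delivery and ciliary growth, had levels of 2.67 and 2.72 in WT and 2.40 and 2.38 on the KO arrays. The replicates of each genotype nearly coincided, and the difference was -0.31 ± 0.08 (SE; limma, adjusted p = 0.145). Its downstream probe differed by -0.11, and with normexp background correction the sign of the main probe turned. The paralog Rab8b differed by -0.05, with overlapping arrays.

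By the probe used for each gene, the abundant recycling Rabs were close to equal in both genotypes. Rab11a, the main Rab of recycling endosomes, had levels of 3.54 and 3.34 in WT and 3.41 and 3.49 on the KO arrays. The arrays overlapped, and the difference was 0.01 ± 0.11 (SE). Rab14, which acts between the Golgi, endosomes and phagosomes, had levels of 3.25 and 3.26 in WT and 3.10 and 3.27 in KO, and also overlapped (-0.07 ± 0.10, SE). A Rab14 probe of a cDNA clone was lower on both KO arrays, by -0.37, while the other mRNA probe differed by -0.07. Rab4b, Rab12 and Rab35 differed by -0.00, -0.01 and 0.00, but a dimmer clone probe of Rab12 was lower on both KO arrays, by -0.38. Rab11b was lower on both KO arrays, by -0.16, and epithelial Rab25, with a dim probe, by -0.50 ± 0.27 (SE). Rab4a differed by 0.20 ± 0.30 (SE), its KO arrays at -4.07 and -4.86 lying on both sides of WT.

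**Figure D3:**
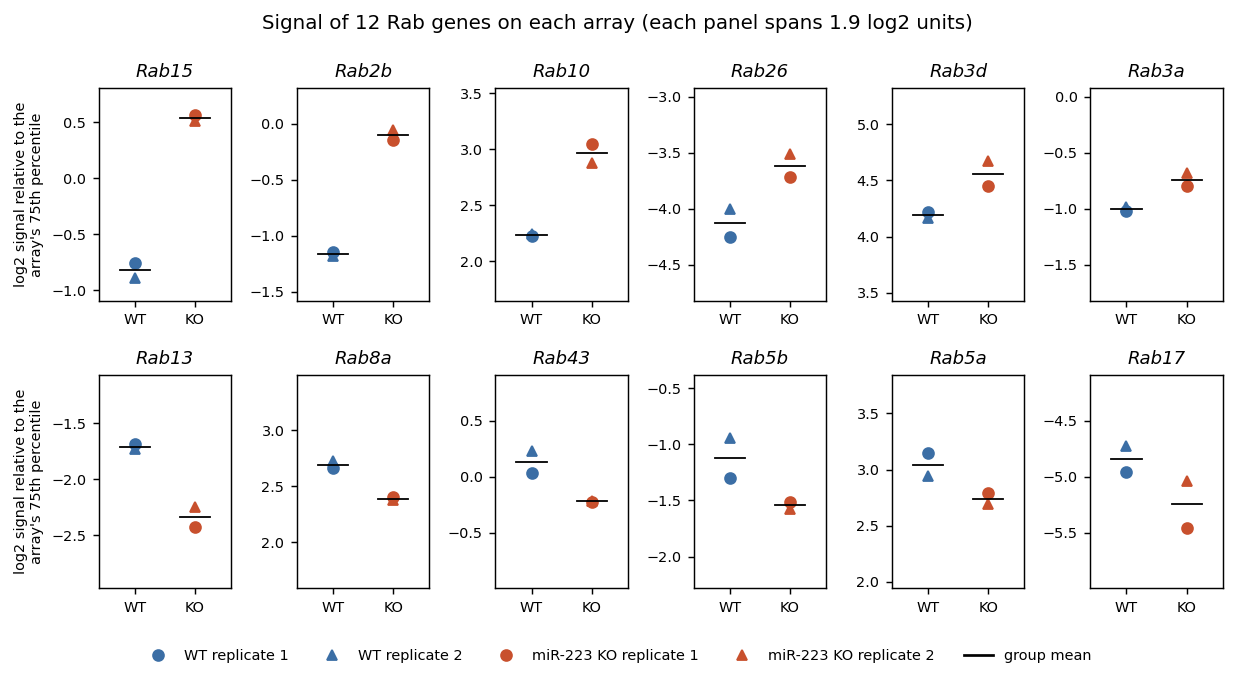
Log2 signals relative to the 75th percentile of the array (y axis) are shown on each array for the 12 Rab genes with the smallest p in each direction and separated genotypes, with 6 higher in KO above and 6 lower below; every panel spans the same range, and lines mark group means. The gap between genotypes is many times the distance between replicates for Rab15, Rab2b and Rab10, and close to the distance between the KO replicates for Rab17.

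Of the 14 listed Rabs between ER and Golgi 12 were measured, 7 higher and 5 lower, with a median difference of 0.02. Rab2b, which works at the Golgi like its paralog Rab2a, had levels of -1.14 and -1.18 in WT and -0.15 and -0.06 on the KO arrays. The genotypes were far apart relative to their replicates, with a difference of 1.06 ± 0.08 (SE), or 2.08-fold (limma, adjusted p = 0.0838), at chr14:52881602-52881661 (mm9, minus strand). Its other probe lies upstream and was dim, at -5.22 and -4.16 in WT and -4.28 and -4.11 in KO, well above background on 1 WT array and both KO arrays. Rab2a did not share the difference: its levels were 4.77 and 4.60 in WT and 4.57 and 4.67 in KO, which overlap. Rab43, a Golgi Rab also found on phagosomes, had levels of 0.03 and 0.23 in WT and -0.23 and -0.21 in KO. Both KO arrays were lower, by -0.35 ± 0.11 (SE; limma, adjusted p = 0.173), and all 4 Rab43 probes were lower, by -0.23 to -0.35. The housekeeping Rabs of this route stayed near 0: Rab1 differed by 0.15 ± 0.10 (SE), Rab1b by 0.10 ± 0.12, Rab6 by -0.12 ± 0.08 and Rab18, of ER and lipid droplets, by 0.13 ± 0.09. Rab19, Rab33a and Rab33b differed by 0.00, -0.05 and 0.03, and Rab39 by -0.30 ± 0.28 (SE) with overlapping arrays. Rab6b was dim and its replicates lay far apart, with KO replicate 1 at -2.88 and KO replicate 2 at -4.24, beside -4.41 and -3.82 in WT (0.56 ± 0.54, SE).

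In the early endosome and phagosome group all 8 Rabs were measured, 3 higher and 5 lower, with a median difference of -0.15 and 0 at an unadjusted p under 0.05. The paralogs of Rab5, which drives the fusion of early endosomes, did not move as one. Rab5a had levels of 3.14 and 2.94 in WT and 2.79 and 2.69 in KO. Both KO arrays were lower, by -0.30 ± 0.11 (SE; limma, adjusted p = 0.223), from a probe spotted 10 times on the array, though the sign turned with normexp. The other mRNA probe of Rab5a, just upstream, differed by -0.05, and a probe of a cDNA clone by -0.73, from -4.30 and -4.18 in WT to -4.98 and -4.96 in KO. Rab5b had levels of -1.30 and -0.94 in WT and -1.51 and -1.58 in KO. Its KO arrays were lower, by -0.42 ± 0.15 (SE; limma, adjusted p = 0.215), but its 2 other probes differed by only -0.09 and -0.11. Rab5c went the other way, with 3.42 and 3.41 in WT and 3.75 and 3.49 in KO. Its difference was 0.20 ± 0.12 (SE), and the groups did not overlap.

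Of the other early endosomal Rabs, Rab17 had the largest difference. Rab17, an epithelial transport Rab, was dim at -4.96 and -4.73 in WT and -5.46 and -5.04 in KO. Its KO arrays were lower, by -0.41 ± 0.19 (SE; limma, adjusted p = 0.286), with a replicate gap in KO as large as the difference. Rab20, which acts on phagosome maturation, had levels of -0.28 and -0.39 in WT and -0.59 and -0.47 in KO, lower by -0.20 ± 0.10 (SE) without overlap. Rab31, between the Golgi and endosomes, had levels of 2.70 and 2.53 in WT and 2.57 and 2.73 in KO. These overlap, at 0.03 ± 0.11 (SE). Rab22a was higher on both KO arrays, by 0.17 in a probe of a cDNA clone, while its 2 mRNA probes differed by -0.11 and 0.03. Rab21, linked to integrin traffic, differed by -0.10 with overlapping arrays.

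Of the 7 listed late endosomal and lysosomal Rabs 5 were measured, 4 higher and 1 lower, with a median of 0.20 and 0 at an unadjusted p under 0.05. Rab7, which directs late endosomes and phagosomes to lysosomes, had levels of 3.90 and 3.85 in WT and 3.72 and 3.87 on the KO arrays. The arrays overlapped, and the difference was -0.08 ± 0.10 (SE). The other Rab7 probe was lower on both KO arrays, by -0.21. Rab32, which with Rab38 supplies lysosome-related organelles, had levels of 3.89 and 4.05 in WT and 4.07 and 4.18 in KO. Both KO arrays were above WT, but only by 0.16 ± 0.10 (SE), about the distance between the WT replicates. Rab38 was dimmer and more variable, at -2.83 and -2.20 in WT and -1.89 and -2.26 on the KO arrays. The groups overlapped, at 0.44 ± 0.27 (SE). Rab9, which returns receptors from late endosomes to the Golgi, was higher by 0.20 ± 0.11 (SE), and Rab34 by 0.36 ± 0.20 (SE), in the latter case mainly through KO replicate 1 at -2.87.

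Regulated secretion is the route of granule release. Of its 9 listed Rabs 7 were measured, 5 higher and 2 lower, with a median of 0.09. 3 had an unadjusted p under 0.05 (42.9%, beside 23.8% of all genes), all of them higher. 4 separated the genotypes (57.1%, beside 58.6% of all genes), and these were also higher. Rab3d, known from the secretory granules of exocrine and myeloid cells, had levels of 4.22 and 4.17 in WT and 4.45 and 4.67 in KO. Both KO arrays were above both WT arrays, by 0.37 ± 0.11 (SE; limma, adjusted p = 0.175). Its other probe, which holds no seed complement, differed by 0.40, so both Rab3d probes were higher in KO. Rab26, a Rab of secretory granules, was dim at -4.25 and -4.00 in WT and -3.72 and -3.51 in KO, higher by 0.51 ± 0.14 (SE; limma, adjusted p = 0.153). This is a probe of a cDNA clone. Its mRNA probe differed by 0.81, from -7.43 and -4.94 in WT to -5.36 and -5.39 in KO. That probe was well above background on 1 WT array and both KO arrays, and its genotypes overlapped. The direction of the Rab26 difference turned under both versions of normexp background correction. Rab3a, of regulated exocytosis in neurons, had levels of -1.02 and -0.98 in WT and -0.80 and -0.68 in KO. It was higher by 0.26 ± 0.09 (SE; limma, adjusted p = 0.198), with the sign turned by normexp.

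Unlike Rab3d, the secretory Rabs Rab27a, Rab44 and Rab37, also known from granulocytes or mast cells, showed little difference. Rab27b was not measured. Rab27a, which docks azurophilic granules for release, had levels of 2.92 and 2.84 in WT and 2.88 and 2.95 on the KO arrays. The arrays overlapped, both of its probes differed by 0.03, and the standard error was 0.09. Rab44, an unusually large Rab of myeloid cells, had levels of 3.91 and 3.96 in WT and 3.97 and 4.09 in KO. Its KO arrays were above WT by a margin smaller than the replicate gap, at 0.09 ± 0.09 (SE). Rab37, of mast cell granules, had levels of 0.57 and 0.50 in WT and 0.33 and 0.69 in KO, with KO on both sides of WT (-0.02 ± 0.15, SE). Rab3b differed by -0.06.

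The remaining group, of cilium, autophagy and other functions, had 4 of 5 members measured and a median of -0.10. Rab24, of autophagy, and Rab40c, part of a ubiquitin ligase, were lower on both KO arrays, by -0.17 and -0.16. Rab23, of hedgehog signalling, and ciliary Rab28 overlapped, at 0.05 and -0.04. In each of these genes the difference of the probe used was under 0.2 in size.

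Probes along the same mRNA did not always report the same difference. In 26 Rab genes with probes of the same mRNA at least 60 genomic bases apart, the most downstream probe gave a higher difference than the most upstream in 21 (80.8%), against 63.8% of 4465 genes in all. The median of downstream minus upstream was 0.09, against 0.06 in all genes. The gap was over 0.3 upward in 8 Rab genes (30.8% against 16.4%) and over 0.3 downward in 0 (0% against 4.93%). Beyond Rab10 and Rab2b these included Rab11a (-0.12 upstream, 0.32 downstream), Rab11b (-0.01 and 0.33), Rab8b (-0.12 and 0.25) and Rab23 (0.18 and 0.57). Rab5a ran the other way, from -0.05 to -0.30. The downstream probe was the dimmer of the pair in 13 of the 26 and gave the higher difference in 11 of those, and where it was brighter it did so in 10 of 13. Members of a family are not independent samples, the pattern was noticed in these data, and its cause was not tested.

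**Figure D4:**
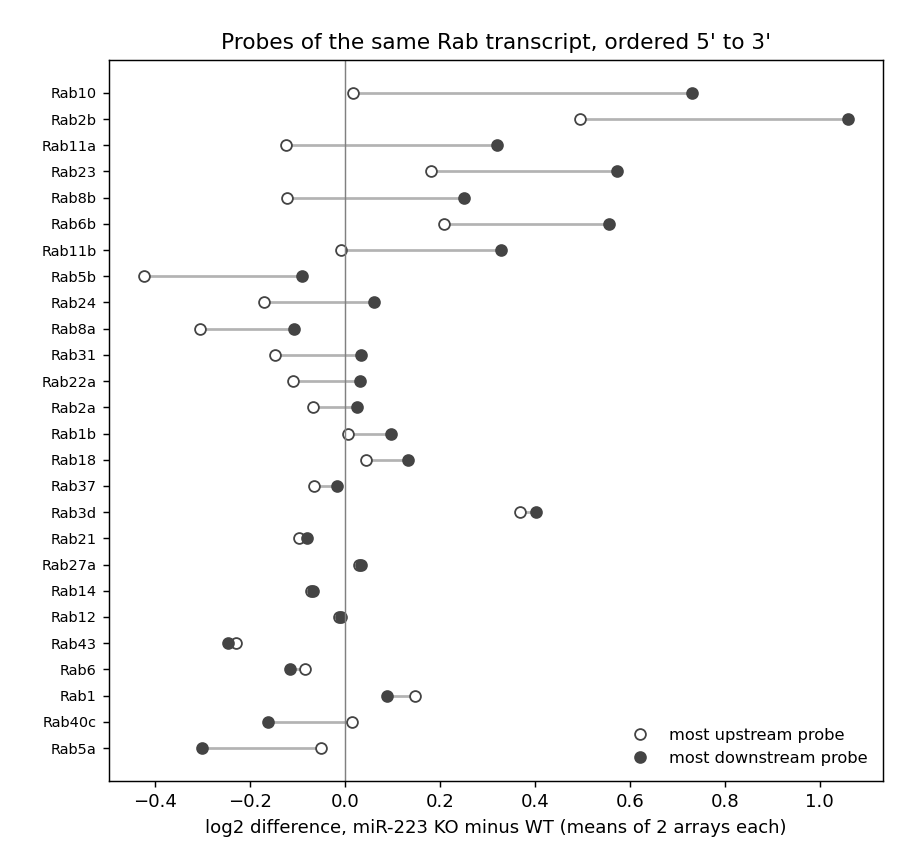
For each of 26 Rab genes, the x axis gives the log2 difference, miR-223 KO minus WT, of the most upstream probe (open) and the most downstream probe (filled) of the same mRNA. The filled point lies to the right of the open one in 21 genes, farthest in Rab10, where the difference goes from 0.02 to 0.73.

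The genes that act on or with Rabs were read from the same fit. Of 145 listed genes 133 were measured, and 0 passed an adjusted p of 0.05 in limma. In 32 (24.1%) the unadjusted p was under 0.05, beside the 23.8% of all genes, 18 being higher and 14 lower, and the median was 0.02. Prenylation and membrane extraction had 8 of 8 measured, and 1 had an unadjusted p under 0.05, the escort protein gene Chm (0.39 ± 0.12, SE). Gdi2, which extracts Rabs from membranes, differed by -0.08. Exchange factors had 33 of 33 measured and 3 under 0.05: Dennd6a, an activator of Rab14, was higher (0.72 ± 0.09, SE), and Dennd4c (-0.29), an activator of Rab10, and the TRAPP subunit Trappc10 (-0.28) were lower. GTPase-activating proteins had 31 of 35 measured and 7 under 0.05, among them Tbc1d10a (-0.68 ± 0.08, SE), Tbc1d24 (-0.72) and Evi5l (0.61).

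Effectors had 43 of 51 measured, with 14 at an unadjusted p under 0.05 (32.6%, beside 23.8% of all genes), 9 higher and 5 lower. Eea1, the early endosome tether that binds Rab5, had levels of 0.99 and 0.94 in WT and 0.49 and 0.52 in KO. Both KO arrays were lower, by -0.46 ± 0.08 (SE; limma, adjusted p = 0.101). Optn, which binds Rab8, was lower by -0.72 ± 0.09 (SE), and Rab11fip3, which binds Rab11, was higher by 0.80 ± 0.13 (SE). The fusion machinery had 18 of 18 measured, 13 higher and 5 lower with a median of 0.16. At an unadjusted p under 0.05 there were 7 (38.9%, beside 23.8% of all genes), 4 higher and 3 lower. Stx3, a SNARE of granule fusion, had levels of -2.37 and -2.23 in WT and -0.97 and -0.76 in KO. This was the largest difference of these lists, 1.44 ± 0.12 (SE; limma, adjusted p = 0.0838). Nsf, which recycles SNAREs, and Vamp3 were lower, by -0.28 and -0.27. The levels of Vamp8 and Stxbp2, of granule exocytosis, overlapped between genotypes.

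Promoters of the family were rich in G and C, as is usual for genes active in many tissues. RefSeq start sites (GRCm38.p6) matched 46 of the 56 genes, and the 250 bases before each start had a median GC content of 61.2%, against 52.0% over 27025 genes. The GC box (GGGCGG, either strand, as for all motifs here) was found in 32 of 46 windows (69.6%) against 33.0% of all, and CCAAT in 22 (47.8%) against 34.5%. TATAAA was found in 3 (6.52%) against 12.98%: Rab39b, Rab3b and Rab7. TGANTCA (AP-1) was found in 1 (Rab34; 2.17% against 6.85%) and GAGGAAGT, a site type of the myeloid factor PU.1, in 2 (Rab2b and Rab32; 4.35% against 2.42%). The windows of the pair with the largest differences are shown with these motifs in capitals. The Rab15 window, chr12:76822525-76822774 on the minus strand of GRCm38.p6, is 75.2% GC with 27 CpG and 4 GC boxes. The Rab2b window, chr14:52279396-52279645 on the minus strand, is 64% GC with 23 CpG and holds 1 GC box, 1 PU.1 match and 1 CCAAT box.
Rab15: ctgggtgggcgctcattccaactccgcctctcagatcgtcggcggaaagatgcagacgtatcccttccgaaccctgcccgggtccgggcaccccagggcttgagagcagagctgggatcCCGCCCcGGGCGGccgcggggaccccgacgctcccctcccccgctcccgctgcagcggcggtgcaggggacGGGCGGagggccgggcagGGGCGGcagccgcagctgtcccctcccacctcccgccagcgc
Rab2b: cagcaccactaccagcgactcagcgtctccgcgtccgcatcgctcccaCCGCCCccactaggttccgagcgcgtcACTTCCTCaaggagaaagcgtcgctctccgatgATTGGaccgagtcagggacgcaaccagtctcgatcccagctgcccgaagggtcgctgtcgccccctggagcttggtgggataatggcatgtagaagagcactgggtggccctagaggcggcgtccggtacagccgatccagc
The 2 windows shared the GC box and no other of these motifs. A match says only that the letters are present, and binding was not measured.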

How the data were processed

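Gene expression was measured in 4 one-colour Cy3 arrays, 2 WT and 2 miR-223 KO. Per the file headers, the deposited intensity of a spot was detrended and background-subtracted by Agilent Feature Extraction 10.5.1.1 and not scaled between arrays; probes are annotated on mm9. The authors also deposited a table of log2 values, which tracked the scanner values (r at least 0.9999); its column medians are all 4.68, and its exact scaling is not given in the sources used here. Log2 processed signals were set against the 75th percentile of their array. Repeated spots were averaged, a probe was kept if well above background on 2 or more arrays, and the brightest probe stood for a gene. Names were updated through a RefSeq table for 26933 probes by accession and 894 by synonym; 5570 were current and 7777 kept the name in the files. Differences were fitted with limma 3.58.1 in R 4.3.3 (lmFit, eBayes, no replicate block) and adjusted by Benjamini-Hochberg over 16978 genes; an exact test of 2 against 2 arrays cannot go below p = 0.333. The fit was tested on simulated data. Members and lists were chosen with earlier results of these data known. Named in full are the 6 separated members with the smallest p in each direction, a fixed list of neutrophil Rabs, and up to 3 partners per list; other genes are named where a paralog or role is described, after their values were seen. The alternatives varied the background correction, the scaling, the input table, the dim-probe filter, the choice of probe, the variance prior, the block and the arrays used.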

Additional observations from a re-analysis of the deposited data

How the results depend on the processing

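The count of Rab genes passing an adjusted p of 0.05 was 0 and changed under 4 alternatives. It was 5 with normexp fitted without control spots (Rab15, Rab2b, Rab10 and Rab3d higher, Rab13 lower), 1 on the authors' deposited values (Rab15, higher), 2 among genes well above background on all 4 arrays (Rab15 and Rab2b, both higher) and 5 with an intensity trend. For the regulators and partners it was 11 with normexp fitted without control spots, 1 on the deposited values, 1 with the stricter filter and 12 with the trend. Fewer genes are tested under the stricter filter, and the cause was not tested otherwise. It was 0 for both under the other alternatives, ranging from 0 to 0 when each array was left out in turn, and 0 with the replicate block, under which 7 Rab genes had an unadjusted p under 0.05 in place of 9. Same-numbered arrays did not deviate together in signal (r = 0.04). This cannot settle whether the numbers pair the samples, which the labels do not say. Of the 12 genes named by p, Rab3a, Rab5a, Rab8a and Rab26 changed sign with normexp, Rab26 also without control spots, and Rab10 when the dimmest probe was used, an alternative added after the data were seen. 4 arrays limit the precision, and dim probes such as those of Rab17, Rab25 and Rab26 lie near background.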

Other observations

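Probes annotated to cDNA clones, in place of the RefSeq mRNA of the same gene, gave lower differences than the mRNA probes in most genes with both kinds, Rab or not. In 9 Rab genes both kinds were measured, and the clone probe lay below the mean of the mRNA probes in 7 (77.8%), against 70.8% of 1504 genes in all. The median of clone minus mRNA difference was -0.30 in the Rab genes and -0.16 in all genes, and the median clone difference itself was -0.37 and -0.21. The largest gaps were in Rab10 (-0.57 for the clone, 0.24 for the mean of its mRNA probes), Rab5a (-0.73 and -0.18) and Rab18 (-0.45 and 0.09). Rab22a and Rab5b ran the other way. In Rab10 and Rab18 the clone probe was lower in KO and the mRNA probes on average higher; in Rab22a it was the reverse (0.17 for the clone, -0.04 for the mRNA probes). What these clone probes detect was not tested.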
